A study of Mus musculus with 19 samples.

Results

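In 4 of the 11 libraries of experiment 1 the transthyretin gene Ttr, the best known marker of choroid plexus epithelium, was above 100 CPM (counts per 1000000 counts of the library), and in the other 7 it was below 50 CPM. These classes are called rich and poor here, and the members described are the genes other than Ttr whose level followed the split. The classes were selected on the Ttr level itself, so every difference between rich and poor libraries is a description and not a test. Of 23307 genes tested besides Ttr, 87 were called, meaning an adjusted p under 0.05 in an edgeR fit with DN genotype as covariate. Of these, 72 were higher (0.309% of genes tested) and 15 lower (0.0644%) in the rich libraries. The series holds 19 libraries, and the 8 libraries of experiment 2, which the split did not use, served as the test.

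The tissue was dorsal hippocampus, and total RNA was sequenced from male mice, aged 2 to 4 months, of the strain C57BL/6J. All mice of experiment 1 carried tTA, the tetracycline-controlled transactivator, and had SOR exposure, an abbreviation that the labels do not spell out. The 5 DN libraries also carried the Nr4ADN transgene, which encodes a dominant-negative version of Nr4a, a family of transcription factors, and the 6 control libraries did not (tTA+/DN-). Experiment 2 had 4 control libraries with SOR exposure and 4 from homecage mice, all DN-; homecage 1, homecage 2 and SOR 1 were tTA- and the other 5 tTA+. The promoter that drives tTA is not given in the sources used here, nor whether each library was 1 mouse, so p-values measure the spread between these libraries. Library totals ran from 22258159 to 66991576 counts; the rich libraries held 30855629 to 42696679 and the poor ones 32769169 to 47992063.

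The choroid plexus is a folded epithelium that hangs into the brain ventricles, including the lateral ventricle beside the hippocampus, and secretes cerebrospinal fluid. Its cells pump ions and bicarbonate across the sheet, water follows through aquaporin channels, and tight junctions close the gaps between cells. They also make carriers such as transthyretin, which binds thyroid hormone, and take up folate and hormones from the blood. The ependyma, the ciliated lining of the ventricles, borders this epithelium and beats its motile cilia to move the fluid.

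The promoters shown are of the 4 genes with the largest log2 difference between rich and poor libraries, among called genes without overlap of the classes, with a mean of at least 1 CPM in the rich class and with an entry in the RefSeq promoter table. Each is the 250 bases before the RefSeq start (GRCm38.p6), on the strand that the table gives and 5′ to 3′, with capitals marking a GTTGCC match (part of an RFX site).
Prr32, chrX:45090654-45090903, plus strand: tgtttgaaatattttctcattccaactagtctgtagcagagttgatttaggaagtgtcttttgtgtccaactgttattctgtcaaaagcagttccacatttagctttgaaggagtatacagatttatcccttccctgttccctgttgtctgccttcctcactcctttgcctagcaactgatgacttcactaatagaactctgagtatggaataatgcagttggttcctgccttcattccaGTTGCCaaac
Tmem72, chr6:116716759-116717008, minus strand: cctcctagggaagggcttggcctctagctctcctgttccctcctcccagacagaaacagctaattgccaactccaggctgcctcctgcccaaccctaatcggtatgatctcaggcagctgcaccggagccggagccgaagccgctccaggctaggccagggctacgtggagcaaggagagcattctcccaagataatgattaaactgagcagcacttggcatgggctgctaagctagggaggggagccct
Slc4a5, chr6:83237125-83237374, plus strand: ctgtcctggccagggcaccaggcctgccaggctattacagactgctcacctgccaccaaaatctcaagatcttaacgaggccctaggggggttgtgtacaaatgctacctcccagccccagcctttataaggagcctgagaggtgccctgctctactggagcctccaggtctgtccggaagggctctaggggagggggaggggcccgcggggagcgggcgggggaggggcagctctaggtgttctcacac
Aqp1, chr6:55336049-55336298, plus strand: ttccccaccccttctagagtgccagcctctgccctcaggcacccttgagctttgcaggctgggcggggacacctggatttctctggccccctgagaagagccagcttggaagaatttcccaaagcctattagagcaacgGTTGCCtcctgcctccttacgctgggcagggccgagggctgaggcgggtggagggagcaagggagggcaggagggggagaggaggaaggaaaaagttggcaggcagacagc

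These windows were searched on both strands for TAATCC (an Otx site), TGTTTAC (a forkhead site) and GTTGCC, which share no overlap in these 4 sequences. Prr32 and Aqp1 each held 1 GTTGCC, and no other match was found in the 4 windows. Of the 72 higher genes, 53 had an entry in the table, with 71 promoters. TAATCC was in 8.45% of those 71 promoters and in 6.25% of all 32851 promoters of the table. TGTTTAC was in 5.63% and 3.17%, and GTTGCC in 15.5% and 10.4%. These shares are descriptions of the letters in the windows. The RefSeq start of Slc4a5 lies 17547 bases from the annotated gene start in GENCODE, so its window belongs to an inner start. That of Aqp1 lies 133 bases before the GENCODE start, outside the annotated transcripts, so its window could not be compared with them.

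Ttr itself was 3841.67 CPM in control 1, 1507.93 CPM in DN 2, 1234.12 CPM in control 2 and 140.39 CPM in DN 1, the 4 rich libraries. The 7 poor libraries held 4.23 to 21.1 CPM, with control 6 lowest and DN 5 highest. No library lay between 50 and 100 CPM, and the libraries nearest the limits were DN 1 inside and DN 5 outside. Both classes hold both genotypes, 2 DN and 2 control libraries among the rich and 3 DN and 4 control among the poor. The rich libraries are the replicates numbered 1 and 2 of both groups and the first 4 columns of the table, so the split and anything else that goes with those numbers cannot be told apart. In experiment 2, Ttr was 1998 CPM in SOR 2, 907 CPM in SOR 1 and 134 CPM in homecage 2, and 8.99 to 50.7 CPM in the other 5 libraries.

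**Figure D1:**
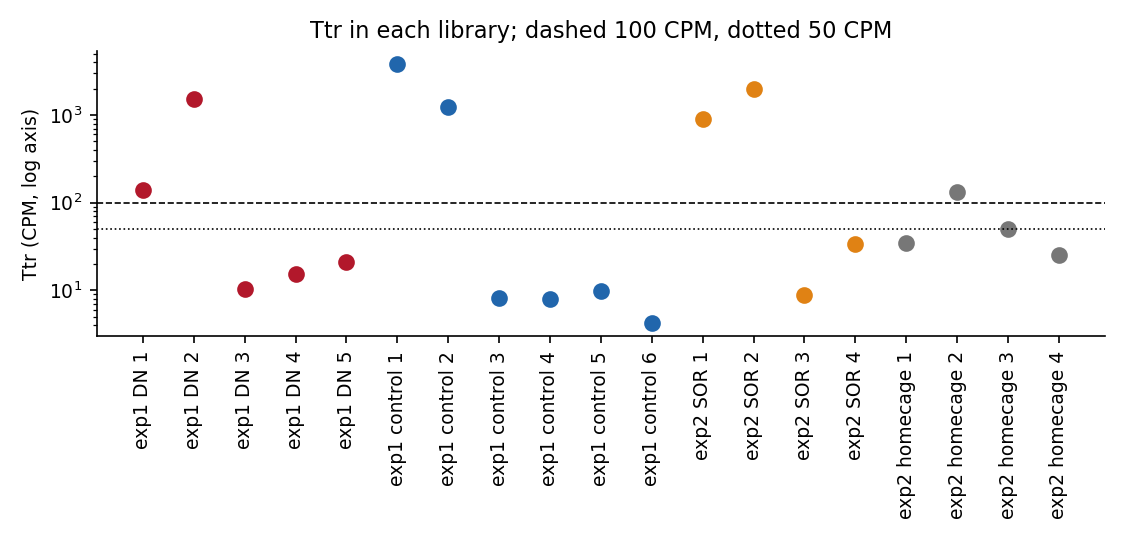
Ttr in CPM (log axis) in each of the 19 libraries, coloured by group; the dashed line marks 100 CPM and the dotted line 50 CPM. In experiment 1 the libraries DN 1, DN 2, control 1 and control 2 lie above 100 CPM and the other 7 lie at 21.1 CPM or less.

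The mean log2 Ttr CPM was 0.29 higher in DN than in control libraries (exact two-sided permutation test, p = 0.900, 5 against 6 libraries), and 1.63 higher in SOR than in homecage libraries (exact p = 0.4, 4 against 4). A p of this size does not show that the groups had equal Ttr, and single libraries moved both differences. With 1 library left out, the DN difference ran from -0.88 without DN 2 to 1.55 without control 1 and was below 0 in 6 of 11 cases. These were the cases without DN 1, DN 2, control 3, control 4, control 5 or control 6; it was 1.22 without control 2, 0.91 without DN 3, 0.77 without DN 4 and 0.66 without DN 5. The SOR difference was 0.40 without SOR 2, 0.78 without SOR 1 and 2.996 without SOR 3.

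The genes that follow the split fell into 3 bands of size. In 26 of the 72 higher genes the difference was at least 2 on the log2 scale, in 10 it lay from 1 to 2, and in 36 it was under 1; the 15 lower genes differed by 0.18 to 0.90. In 52 of the 72, every rich library was above every poor library, as in 171 genes (0.734%) of all tested, and in 13 of the 15 every rich library was below every poor one, as in 246 genes (1.06%). Since the rule used this contrast, these shares describe the split and support nothing. The number called depended on single libraries. It was 15 without DN 2, 28 without control 6, 32 without control 3, 38 without control 1, 42 without DN 3, 57 without control 4 and 258 without DN 1, the rich library with the least Ttr.

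Genes of ion, bicarbonate and water transport were among those that followed the split. Aqp1, the water channel (chr6:55336432-55348555 in GRCm38, as for the other genes), was at 29.1 CPM in control 1, 11.8 in DN 2, 6.56 in control 2 and 1.09 in DN 1, and ranged from 0.180 to 0.549 (median 0.305) in the poor libraries. Slc4a5, a sodium bicarbonate cotransporter (chr6:83219828-83304945), was at 21.8, 13.3, 8.08 and 1.48 CPM in the same 4 libraries and 0.0905 to 0.605 CPM in the poor. In both genes the order of the rich libraries is that of Ttr, and the classes do not overlap. The log2 differences were 5.18 (SE 0.79) for Aqp1 and 5.31 (SE 0.72) for Slc4a5. Clic6, a member of the chloride intracellular channel family, differed by 4.54 (SE 0.61) and Steap1, of a family of metalloreductases, by 3.79 (SE 0.45). Slc29a4, a monoamine transporter, was called with a difference of only 0.43 (SE 0.06), at 17.9 to 22.3 CPM against 13.3 to 16.0.

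Of the 16 channels and transporters on the choroid epithelium list, those 5 were called, 15 had a difference above 0 and the list median was 1.70, against -0.002 over all genes tested. Kcne2, a potassium channel subunit of this epithelium, differed by 5.45 (SE 0.85) but was not called (edgeR adjusted p = 0.051), and its level ranged from 0.765 to 21.3 CPM among the rich libraries. Slc5a5, the sodium iodide symporter, was at 8.06 to 9.42 CPM in the rich and 7.42 to 11.1 CPM in the poor libraries, and was the only list member with a difference under 0 (-0.02).

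Receptors and secreted proteins made a second group. Folr1, the folate receptor (chr7:101858331-101870788), was at 32.0 CPM in control 1, 12.5 in DN 2, 9.04 in control 2 and 2.10 in DN 1, against 0.542 to 0.977 CPM in the poor libraries, a log2 difference of 4.17 (SE 0.62). Prlr, the prolactin receptor (chr15:10177238-10349180), was at 78.1, 30.6, 26.9 and 6.62 CPM in the same order and 1.77 to 3.92 CPM in the poor libraries (3.48, SE 0.53). For both genes the lowest rich library, DN 1, stood clear of every poor library. Tmem72, a transmembrane protein gene, had the largest difference of any list member (5.84, SE 0.71), at 44.1, 18.9, 14.5 and 2.32 CPM against 0.121 to 0.549. Of the 12 listed receptor and signalling genes these 3 were called, all 12 were above 0 and the median was 2.05.

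Among 10 listed carriers and secreted factors, 3 were called and all 10 were above 0, with a median of 2.15. The 3 were F5, coagulation factor V (4.49, SE 0.64), 1500015O10Rik (3.31, SE 0.50) and Sostdc1, a secreted antagonist of BMP and Wnt signals (2.12, SE 0.32). Enpp2, the enzyme autotaxin that makes lysophosphatidic acid, was at 2412 CPM in control 1, 1363 in DN 2, 1074 in control 2 and 399 in DN 1, and at 296 to 347 CPM in the poor libraries. Its classes do not overlap, yet its difference of 2.02 (SE 0.35) was not called (edgeR adjusted p = 0.0695). Unlike Aqp1 or Folr1, Enpp2 was at 296 CPM or more in every poor library.

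Regulators and parts of the cell sheet followed too. Otx2, a homeodomain transcription factor needed for choroid plexus, was at 12.8 CPM in control 1, 6.57 in DN 2, 4.45 in control 2 and 1.89 in DN 1, against 0.378 to 1.08 CPM in the poor libraries (3.07, SE 0.47). Lmx1a, a LIM homeodomain factor of the dorsal midline, differed by 2.42 (SE 0.31). The tight junction gene Cldn2 differed by 4.20 (SE 0.62), and the keratins Krt18 and Krt8, the intermediate filaments of simple epithelia, by 2.72 (SE 0.43) and 2.54 (SE 0.40). Of 8 genes on this list 5 were called, all 8 were above 0 and the median was 2.48. Over the 4 lists together, 16 of 46 genes were called and 45 were above 0, with 29 at higher levels in every rich than in every poor library. Their summed level was 677 to 3744 CPM in the rich and 537 to 577 CPM in the poor libraries. The number called among the 46 ranged from 3 to 35 with 1 library left out; it was 35 without DN 1, 9 without control 1, 7 without control 2, 6 without DN 4, 5 without DN 5, and 3 without DN 2, control 3, DN 3, control 4, control 5 or control 6.

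The lists were chosen with earlier results of these data known, and the label of the split, choroid plexus rich, was checked against them with that limit. In bulk tissue, fewer cells of a type and less RNA per cell cannot be told apart.

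**Figure D2:**
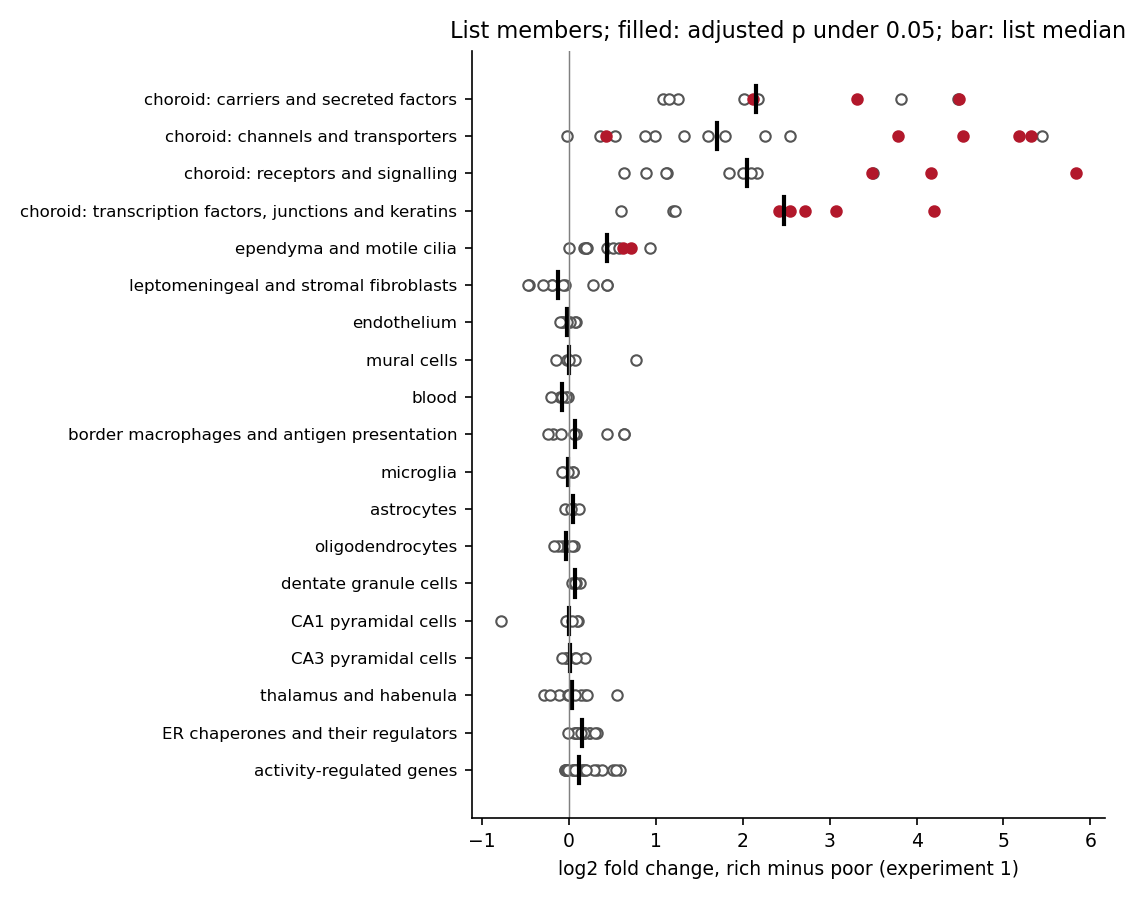
Log2 fold change, rich minus poor libraries of experiment 1, for each tested member of 19 gene lists; filled points have an adjusted p under 0.05 and black bars are list medians. The 4 choroid epithelium lists have medians from 1.70 to 2.48, the ependyma and cilia list has 0.43, and the lists of other cell types lie near 0.

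Several of the higher genes were on no list. Prr32 (6.21, SE 0.93), Cdh3, the gene of P-cadherin (5.60, SE 0.84), Defb11, a beta-defensin gene (4.97, SE 0.71), Wdr72 (4.96, SE 0.68) and Tmprss11a, of a serine protease family (4.62, SE 0.74), had at most 6 counts in any poor library, so the size of their fold depends on the prior count of the fit. Prr32 had 177, 60, 57 and 7 counts in control 1, DN 2, control 2 and DN 1. Tmprss11a had 55, 22, 28 and 0 in the same libraries, so DN 1 overlaps the poor class there. Sgms2, a sphingomyelin synthase gene, differed by 1.13 (SE 0.19), and Tjp3, the junction scaffold ZO-3, by 1.07 (SE 0.23). Tc2n, which overlaps Gm16285 on the opposite strand, was at 0.519 to 3.40 CPM in the rich and 0.122 to 0.504 CPM in the poor libraries (2.81, SE 0.38). Gm44250 differed by 1.26 (SE 0.21), and Large2, a glycosyltransferase gene that overlaps Pex16 on the opposite strand, by 1.24 (SE 0.21). Snora35 (3.05) lies inside Htr2c, a serotonin receptor gene, on the same strand, so reads of the 2 genes may not be separable; Htr2c differed by 1.12 (SE 0.30) and was not called.

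The 10 genes whose log2 CPM had the highest Pearson correlation with that of Ttr over the 11 libraries were F5 (0.986), Folr1 (0.981), Mfrp, Clic6, Cldn2, Tmem72, 1500015O10Rik, Aqp1, Slc4a5 and Wdr86 (0.968). These libraries form 2 clusters of Ttr level, so the values describe the order of the genes only.

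Of 11 tested genes on the ependyma and cilia list 2 were called. Foxj1, the transcription factor that drives motile cilia (chr11:116330704-116335399), was at 15.8 CPM in control 1, 14.5 in DN 2, 13.8 in control 2 and 10.9 in DN 1, against 7.29 to 11.5 CPM in the poor libraries. DN 1 lies below DN 4 at 11.5, so the classes overlap, and the difference was 0.62 (SE 0.11). Rsph1, a radial spoke gene, differed by 0.72 (SE 0.15). These were the 2 called; the 11 list members were all above 0 with a median of 0.43, and the number called was 0 without control 1, control 2, DN 2, DN 3, control 5 or control 6, 1 without control 3, control 4 or DN 5, and 3 without DN 1 or DN 4. The list's summed level was 57.6 to 72.5 CPM in the rich and 40.8 to 61.2 CPM in the poor libraries. Further called genes with a known role in cilia, named after their values were seen and not a list, were Dnajb13 (1.05, SE 0.22), Gmnc, a regulator of multiciliated cells (0.95, SE 0.16), Wdr63 (0.94, SE 0.17), Dnali1, of the axonemal dynein (0.62, SE 0.12), and Ak7 (0.59, SE 0.10).

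Some of the other small differences were in genes expressed at higher levels in every library. Stk39, a kinase that regulates chloride cotransporters, was at 96.1 to 118 CPM in the rich and 84.8 to 92.5 CPM in the poor libraries (0.24, SE 0.04). Ezr, which links membranes to actin in microvilli, differed by 0.23 (SE 0.05), and Ocln, a tight junction gene, by 0.37 (SE 0.06). Gm26917, a non-coding RNA gene, was at 1302 to 1353 CPM against 990 to 1236 CPM (0.34, SE 0.06).

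The 15 lower genes differed by less than 1 on the log2 scale. Cckbr, the brain receptor of cholecystokinin (chr7:105425731-105470898), was at 4.08 CPM in control 1, 3.44 in control 2, 3.27 in DN 2 and 3.25 in DN 1, against 4.62 to 8.35 CPM in the poor libraries (-0.86, SE 0.16). The rich libraries were alike here although their Ttr differed by up to 27.4-fold. Kcnq5, a potassium channel gene, was at 71.6 to 75.4 CPM against 81.4 to 90.4 CPM (-0.23, SE 0.04), and Kcnt1, of a sodium-activated potassium channel, differed by -0.28 (SE 0.05). The teneurin genes Tenm2 and Tenm3, of synaptic adhesion, differed by -0.28 (SE 0.05) and -0.23 (SE 0.05), and Syt2, a calcium sensor of vesicle release, by -0.29 (SE 0.06). Coro6, of the coronin family of actin-binding proteins, was at 5.52 to 6.13 CPM against 6.81 to 9.23 CPM (-0.43, SE 0.09), and Garnl3 at 28.4 to 29.2 CPM against 32.5 to 43.1 CPM (-0.33, SE 0.06). Ssh3, a cofilin phosphatase gene, differed by -0.25 (SE 0.06). Gm3764, which differed by -0.27 (SE 0.05), overlaps microRNA genes on the same strand. Pcsk2os2 (-0.51, SE 0.10) is antisense to Pcsk2, and reads of either strand may not be separable, since the strand setting of the counting is not given in the sources used here.

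No gene was called in experiment 1, in either direction, on the lists for fibroblasts, endothelium, mural cells, blood, border macrophages, microglia, astrocytes, oligodendrocytes, dentate granule cells, CA1, CA3, and thalamus and habenula. Of their 86 tested genes 9 had an unadjusted p under 0.05 in this edgeR fit, and DESeq2 called 1 higher and 1 lower. In the same edgeR fit, 2566 genes of all tested had an unadjusted p under 0.05. The list medians lay between -0.13 for the leptomeningeal and stromal fibroblasts and 0.07. The summed level of the fibroblast list was 41.0 to 68.2 CPM in the rich and 44.0 to 81.0 CPM in the poor libraries, and that of the blood list 40.2 to 65.4 and 36.7 to 111 CPM. The list of 18 chaperones of the endoplasmic reticulum (ER) and their regulators, the chaperones being the subject of the study, had a median of 0.15, with 17 above 0 and 0 called by edgeR or by DESeq2, and 4 with an unadjusted p under 0.05. The list of 20 activity-regulated genes had a median of 0.11, with 15 above 0, 0 called by edgeR and 0 with an unadjusted p under 0.05.

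Experiment 2 gave the test on libraries that the split did not use. In each gene, log2 expression was fitted against log2 Ttr CPM over the 8 libraries with exposure in the model, and a slope of 1 means that a gene changes in proportion to Ttr. Of 23658 genes tested besides Ttr, 38 rose with Ttr (0.161%) and 12 fell (0.0507%) at an adjusted p under 0.05. The balance of directions depended on the setting: DESeq2 called 379 higher and 908 lower, an adjusted p under 0.1 gave 243 and 511, no filter on low counts 145 and 279, and tTA genotype as a further covariate 72 and 138. Of the 72 higher genes of experiment 1, 69 could be tested, 17 of them rose and 0 fell. Of the 69, 19 had fewer than 10 counts in at least 1 library, 8 of the 17 among them, so genes low outside the libraries with much Ttr could pass the filter through those libraries alone. With at least 10 counts required in every library, 50 of the 69 could be tested and 8 rose. The slope was above 0 in 58 of the 69, against 51.9% of all genes tested. At an unadjusted p under 0.05, 43 of the 69 were higher and 3 lower, against 8.64% and 11.6% of all genes. In 20 of the 69, homecage 2, SOR 1 and SOR 2 were all above the other 5 libraries, as in 2.56% of all genes.

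Slopes in experiment 2 went with the size of the difference in experiment 1. Of the band of 26 with a difference of at least 2, 23 could be tested, all 23 had a slope above 0 (median 0.55) and 16 rose. All 10 genes of the middle band had a slope above 0 (median 0.20), and Zfp185 rose (0.20, SE 0.03, edgeR adjusted p = 0.0264). Of the 36 genes under 1, the slope was above 0 in 25 and below in 11 (median 0.03) and 0 were called by edgeR, with 13 higher and 3 lower at an unadjusted p under 0.05, while DESeq2 called 4 higher. These bands were set after the values of experiment 1 were seen.

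**Figure D3:**
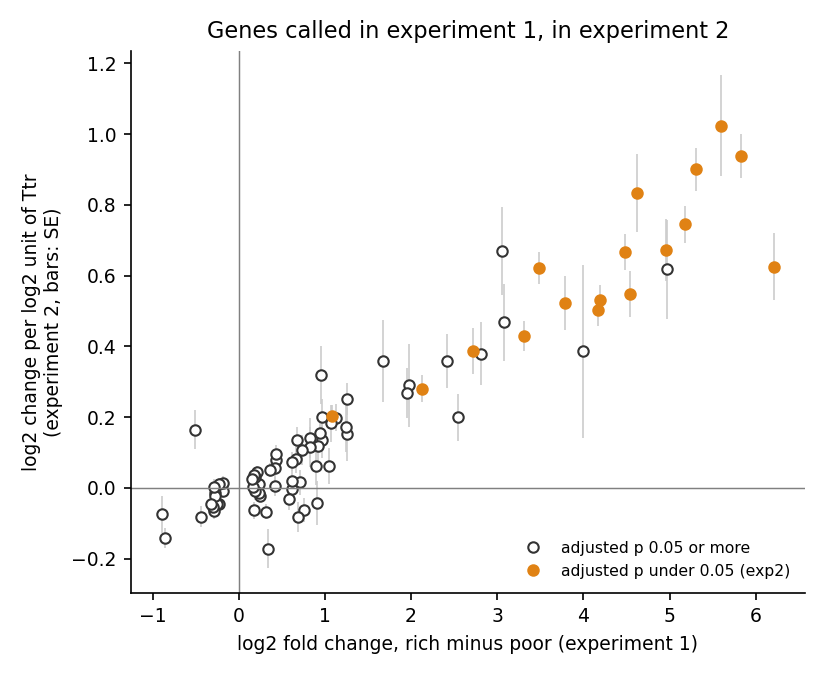
Each point is 1 of the 84 genes called in experiment 1 and tested in experiment 2, at its log2 fold change of rich against poor libraries (x) and its log2 change per log2 unit of Ttr in experiment 2 (y, bars are SE); filled points have an adjusted p under 0.05 in experiment 2. Genes with a difference of at least 2 all lie above 0 on the y axis, and the 36 higher genes under 1 have slopes from -0.17 to 0.32, with 25 above 0.

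Of the 16 listed channels and transporters 10 rose in experiment 2 and all 16 had a slope above 0. Aqp1 was at 16.2 CPM in SOR 2, 6.53 in SOR 1 and 0.980 in homecage 2, against 0.342 to 0.510 CPM in the other 5 libraries, with a slope of 0.75 (SE 0.05, edgeR adjusted p = 3.00e-05). Slc4a5 was at 15.6, 5.21 and 1.41 CPM against 0.0899 to 0.761 (slope 0.90, SE 0.06, edgeR adjusted p = 3.00e-05). The 3 libraries over 100 CPM of Ttr stood above the others in both genes, in the order of Ttr. Kcne2, not called in experiment 1, had a slope of 0.92 (SE 0.07), and Car12, a carbonic anhydrase, 0.26 (SE 0.04, edgeR adjusted p = 0.0416). Car12 was at 38.1, 39.4 and 39.9 CPM in homecage 1, homecage 2 and SOR 1, the tTA- libraries, whose Ttr was 35.1, 134 and 907 CPM. In the tTA+ libraries Car12 was at 44.2 CPM in SOR 2 and 10.7 to 20.9 CPM in the rest. Also rising without a call in experiment 1 were Kcnj13 (0.44, SE 0.05), Abca4 (0.37, SE 0.06), Slc13a4 (0.24, SE 0.04) and Slc2a12 (0.23, SE 0.03). Slc29a4, called in experiment 1, had a slope of 0.09 (SE 0.03, edgeR adjusted p = 0.103).

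Of the 12 receptor and signalling genes 8 rose, and of the 10 carriers and secreted factors 7. Folr1 was at 18.4 CPM in SOR 2, 10.2 in SOR 1 and 2.32 in homecage 2, against 1.35 to 1.78 CPM (slope 0.50, SE 0.04, edgeR adjusted p = 0.000180). Prlr was at 45.6, 21.0 and 7.94 CPM against 0.809 to 6.90 (slope 0.62, SE 0.05, edgeR adjusted p = 5.76e-05). The gap between homecage 2 and the next library was small in both genes. Enpp2 rose (slope 0.26, SE 0.03, edgeR adjusted p = 0.0153), at 1553, 725 and 372 CPM against 307 to 363, and so did Kl, the gene of klotho (0.36, SE 0.05), Igf2, a growth factor (0.19, SE 0.03), and Ace, angiotensin-converting enzyme (0.33, SE 0.04). Wfdc2 (0.80, SE 0.13), Col8a1, a collagen gene (0.69, SE 0.06), Trpv4, a cation channel gene (0.34, SE 0.06), and Lepr, the leptin receptor (0.21, SE 0.04), rose too.

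Of the 8 regulators, junction genes and keratins 3 rose: Cldn2 (0.53, SE 0.04), Cldn1 (0.29, SE 0.04) and Krt18 (0.39, SE 0.07). Otx2 had a slope of 0.47 (SE 0.11, edgeR adjusted p = 0.0931) and Lmx1a of 0.36 (SE 0.08, adjusted p = 0.0695). Over the 4 choroid lists 28 of 46 genes rose, 0 fell and all 46 slopes were above 0, with a median of 0.28 against 0.003 over all genes. Of the 46, 10 had fewer than 10 counts in at least 1 library, and 18 rose in the fit that required 10 in every library. In the same experiment the 12 lists of other cell types held 86 tested genes, of which 0 were called by edgeR, 20 had an unadjusted p under 0.05, and DESeq2 called 4 higher and 6 lower. Their median slopes ran from -0.05 for oligodendrocytes, with 1 of 8 genes above 0, to 0.12 for dentate granule cells, with 5 of 6 above 0. The summed level of the dentate granule list was 368 to 573 CPM in the 3 libraries over 100 CPM of Ttr and 270.2 to 520 CPM in the other 5. By tTA genotype, this sum was 493 to 573 CPM in the tTA- libraries and 270.2 to 368 CPM in the tTA+ libraries, without overlap. The part of tTA genotype in the slope of this list was not tested.

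The cilia genes named for experiment 1 did not pass the test in experiment 2. Foxj1 was at 13.6 CPM in SOR 2, 11.9 in SOR 1 and 10.6 in homecage 2, and at 9.94 to 14.2 CPM in the other 5 libraries, so the groups overlap throughout. Its slope was -0.004 (SE 0.03), and Rsph1 had 0.02 (SE 0.03). Of the 11 tested list members 8 had a slope above 0 (median 0.02) and 0 were called by edgeR or DESeq2 in either direction, with 3 at an unadjusted p under 0.05. With tTA genotype as a further covariate 1 list member, Dnah6, was called higher. Of the cilia genes named outside the list none was called: the slope was 0.32 (SE 0.08, edgeR adjusted p = 0.0996) for Gmnc, 0.15 (SE 0.05) for Wdr63, 0.06 (SE 0.05) for Dnajb13, 0.02 (SE 0.04) for Dnali1 and -0.03 (SE 0.03) for Ak7. The ER chaperones and their regulators had a slope above 0 in 4 of 18 genes (median -0.02), where 17 of 18 differences were above 0 in experiment 1.

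Of the 15 lower genes of experiment 1, 0 were called in experiment 2 in either direction, 11 had a slope below 0, and 4 were lower and 1 higher at an unadjusted p under 0.05. DESeq2 called 1 higher and 1 lower. Cckbr came nearest (-0.14, SE 0.03, edgeR adjusted p = 0.0679), at 3.57 to 4.54 CPM in SOR 1, SOR 2 and homecage 2 and 4.34 to 7.95 CPM in the other 5 libraries. Kcnq5 had a slope of 0.01 (SE 0.02).

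**Figure D4:**
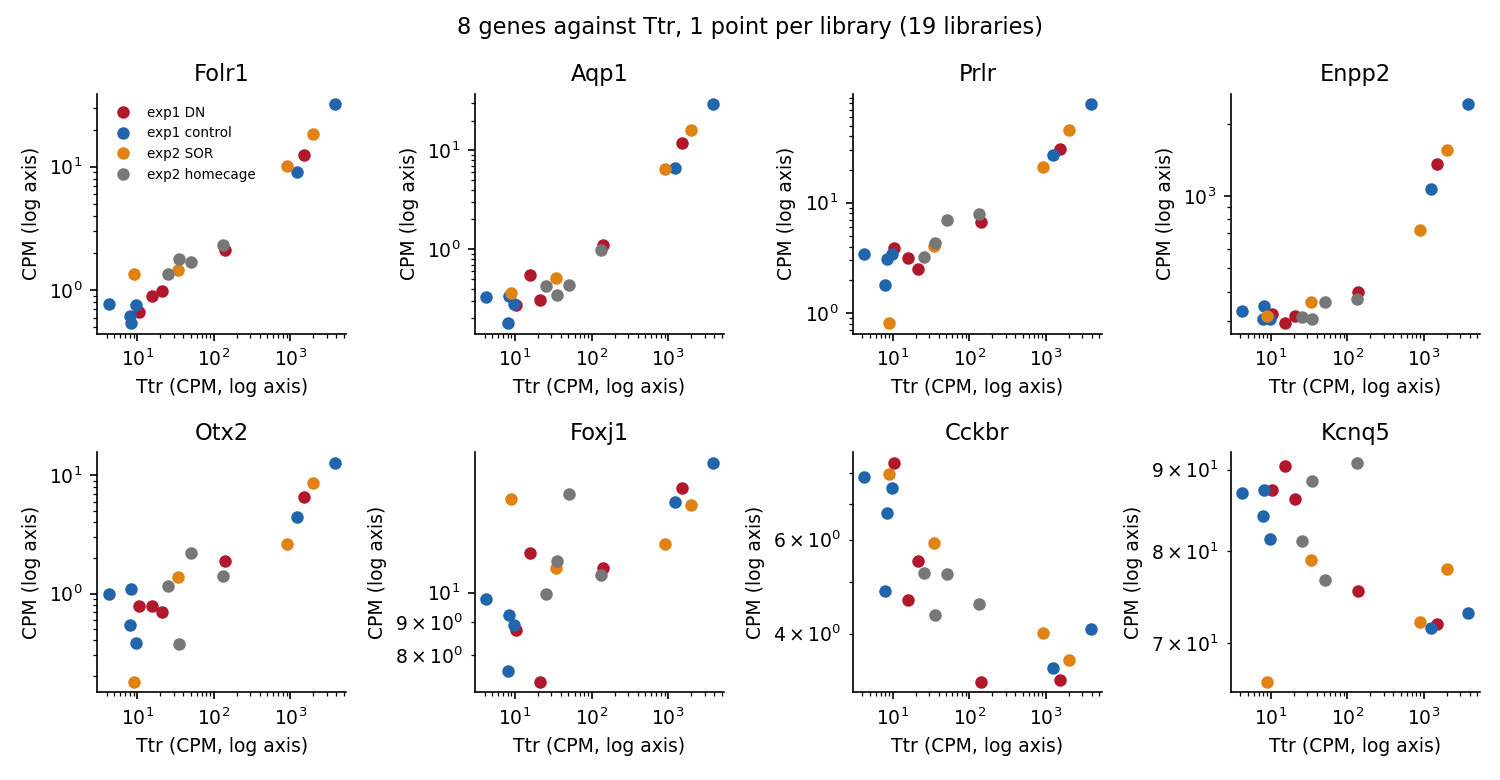
CPM of 8 genes against Ttr CPM in the 19 libraries (both axes log, 1 point per library, coloured by group). Folr1, Aqp1, Prlr and Enpp2 rise along 1 course in both experiments once Ttr is above 100 CPM, while the points of Foxj1 and Kcnq5 from experiment 2 overlap at all levels of Ttr.

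SOR 3, the smallest library (22258159 counts), had the lowest Ttr of experiment 2 and stood apart, with Gm26917 at 7136 CPM where the other 7 libraries had 2238 to 3486. Without SOR 3, 23 genes rose and 0 fell with Ttr, and 16 of the 46 choroid genes and 13 of the 72 higher genes rose. The count of 50 genes called was 14 without SOR 2, 27 without homecage 2, 183 without SOR 1 and 3859 without SOR 4. The choroid genes that rose were 13 without SOR 2 and 35 without SOR 4, and the members that rose were 9 and 28. When the libraries over 100 CPM were set against those under 50 CPM, 0 genes were called by edgeR, with 2429 at an unadjusted p under 0.05.

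Of the 38 genes that rose in experiment 2, 37 were tested in experiment 1 and all 37 had a difference above 0 there. The 17 genes called in both are 44.7% of the 38 and 23.6% of the 72. Of the 12 genes that fell in experiment 2, 4 had a difference below 0 in experiment 1.

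In the 5 libraries with over 500 CPM of Ttr, most choroid genes came in similar amounts per unit of Ttr in the 2 experiments. For each gene the median of the low-Ttr libraries was subtracted from the libraries over 500 CPM of Ttr, and the extra CPM was divided by the extra Ttr. Prlr had 19.6, 19.4 and 18.4 extra CPM per 1000 CPM of Ttr in control 1, control 2 and DN 2, and 19.4 and 21.1 in SOR 1 and SOR 2. Folr1 had 8.14, 6.77 and 7.86, and then 9.999 and 8.63. Enpp2 had 547, 618 and 698, and then 468 and 630. Kl had 24.8, 25.2 and 27.6, and then 29.0 and 28.4. The ranges of the 2 experiments overlap for Prlr and Enpp2, and are apart by less than 2-fold for Folr1 and Kl. The rich library DN 1 and homecage 2, with 140 and 134 CPM of Ttr, were not used, and there the ratio rests on a small difference of Ttr. Kl had 36.6 in DN 1 and 167 in homecage 2, Prlr 26.7 and 38.9, Folr1 10.3 and 8.77, and Enpp2 629 and 563. Igf2 was at -7.60 in DN 1, and Car12 at 198 in homecage 2, so some genes departed there from the values of the other 5 libraries. Kl and Car12 were also high in homecage 1, a tTA- library like homecage 2 with 35.1 CPM of Ttr, at 26.5 and 38.1 CPM. The tTA+ libraries other than SOR 2 had 8.76 to 13.9 CPM of Kl and 10.7 to 20.9 CPM of Car12. The part of tTA genotype in these values was not tested. Over the 46 listed genes, the mean of experiment 2 was within 2-fold of that of experiment 1 in 42, and the median ratio was 0.96 (quartiles 0.82 and 1.12). The 4 outside were Slc39a4, Msx1, Stra6 and Slc5a5. A mean within 2-fold can hide a spread between SOR 1 and SOR 2, as in Col9a3 (0.265 and 8.23) and Slc4a2 (1.86 and 10.4). Foxj1 had 1.81, 3.98 and 3.72 extra CPM per 1000 CPM of Ttr, and then 0.795 and 1.26. Among all 72 higher genes, 52 were within 2-fold, with a median ratio of 0.82 (quartiles 0.39 and 1.06).

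**Figure D5:**
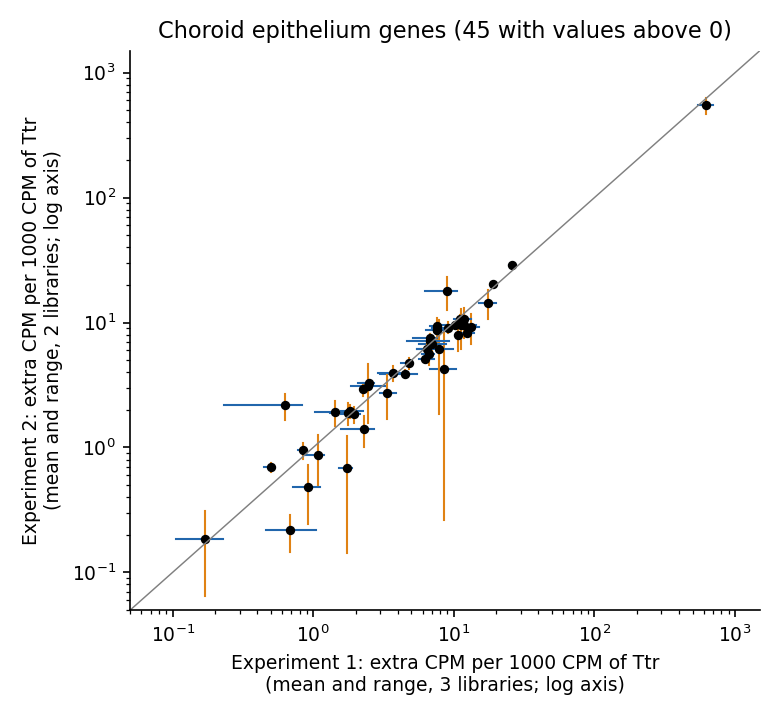
Extra CPM per 1000 extra CPM of Ttr for 45 choroid epithelium genes, experiment 1 (x, mean and range of 3 libraries) against experiment 2 (y, mean and range of 2 libraries), both axes log; the grey line marks equal values. Most genes lie near the line, from below 1 up to Enpp2 at 621 and 549.

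The labelled contrasts were refitted with a covariate for Ttr, the rich or poor split for DN and log2 Ttr CPM for SOR. The split leaves the range of Ttr within the rich class, 140 to 3842 CPM, unadjusted. With log2 Ttr CPM in place of the split, the number of genes called for DN was also 2. For DN against control with the split as covariate, 2 genes were called (0.00858%): Ptprf, a receptor tyrosine phosphatase gene, at 1.51 (SE 0.05), and St3gal3, a sialyltransferase gene, at -0.69 (SE 0.05). The same 2 were called without the split. The 46 choroid genes had a median DN difference of -0.43 with the split and -0.54 without, and 0 were called by edgeR with either fit, with 2 and 0 at an unadjusted p under 0.05. Of these 46 differences, 44 were below 0 with the split and 43 without. The 18 ER chaperones and regulators had a median of -0.18 in both fits and all 18 differences were below 0, 0 were called by edgeR or DESeq2, and 15 had an unadjusted p under 0.05 with the split against 12 without. The 20 activity-regulated genes had a median of -0.23 in both fits, with 19 differences below 0 and 1 at an unadjusted p under 0.05 in each. Over all 23307 genes tested, 11503 differences were below 0 with the split, and 1084 genes had an unadjusted p under 0.05 with it and 858 without. Hspa5, the main chaperone of the ER, differed by -0.36 with the split (SE 0.13, edgeR adjusted p = 0.978) and by -0.36 without it (SE 0.14).

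For SOR against homecage in experiment 2, 41 genes were called with Ttr in the model (0.173%) and 20 without, and all 20 were among the 41. The choroid genes had a median SOR difference of 1.08 without Ttr in the model and 0.17 with it, with 0 of 46 called by edgeR either way; with Ttr in the model 7 had an unadjusted p under 0.05 and DESeq2 called 1 higher and 1 lower. Of the 18 ER chaperones and regulators 8 rose with Ttr in the model and 5 without; Pdia4, a disulfide isomerase gene, rose by 0.70 (SE 0.10, edgeR adjusted p = 0.0267) with Ttr and differed by 0.64 (SE 0.11, adjusted p = 0.0853) without. The part of other cell types in this result was not tested. The dentate granule genes had a median SOR difference of -0.50 with Ttr in the model and -0.28 without, with 1 of 6 above 0 in the first, and the oligodendrocyte genes 0.24 and 0.14, with 7 of 8 above 0. The summed dentate granule level also went with tTA genotype, with homecage 1, homecage 2 and SOR 1, the tTA- libraries, above all others. Of the 86 genes of the 12 lists 0 were called by edgeR with Ttr in the model, 22 had an unadjusted p under 0.05, and DESeq2 called 4 higher and 1 lower. Over all 23659 genes tested, Ttr included, 4782 had an unadjusted p under 0.05 in the same edgeR fit. DESeq2 called 594 of all genes higher and 460 lower. The count of 41 was 1 without homecage 2, 7 without SOR 3, 8 without homecage 3, 11 without homecage 1, 12 without SOR 1, 12 without homecage 4, 14 without SOR 2 and 3978 without SOR 4.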

How the data were processed

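Total RNA libraries (Ribo-Zero gold) of 11 samples of experiment 1 and 8 of experiment 2 were analysed from 1 table of raw gene counts, deposited by the authors. Per the submitters' processing notes, STAR, SAMtools 1.6 and featureCounts 1.4.4 were used with mm10; the strand setting and the treatment of reads with several positions are not given in the sources used here. Of 51789 gene IDs, 51596 matched GENCODE M21. CPM is the count divided by the column total, times 1000000. Fits used edgeR 4.0.16 (quasi-likelihood F test, TMM, filterByExpr) on R 4.3.3 with Benjamini-Hochberg adjustment over all genes tested; DESeq2 1.42.0 and limma 3.58.1 (voom) were alternatives. The scripts were tested on simulated data. Replicates differed by more than counting noise, with a chi-square per degree of freedom of 3.98 to 73.4.

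Named genes were Ttr, then called genes without overlap and a mean of at least 1 CPM in the higher class (the 20 higher and 10 lower with the largest difference), called members of the lists, the 10 most like Ttr, and up to 10 genes called for DN or SOR; other names were chosen after their values were seen. The split, members and lists were chosen with earlier results of these data known. The extra CPM per 1000 CPM of Ttr and the bands of size were added after the data were seen. The values of 1 of the 10 lower genes under this rule are not reported here, and genes called for DN or SOR are given only in part.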

Additional observations from a re-analysis of the deposited data

Results flagged for a closer look

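Of 124 groups of libraries examined for a lone extreme value among the named genes, 3 held one, and chance flags about 1 group in 20. Krt18 was at 0.336 CPM in homecage 4, against 0.854 to 1.004 CPM in the other 3 homecage libraries. Tenm2 was at 130 CPM in DN 4 and 107 to 116 CPM in the other 6 poor libraries. Ssh3 was at 23.8 CPM in control 6 and 20.82 to 21.97 CPM in the other 6 poor libraries. The last 2 are extreme on the side away from the rich libraries.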

How the results depend on the processing

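The 87 genes called for the split became 188 at an adjusted p under 0.1, 737 with no filter on low counts, 44 with at least 10 counts in every library, 297 with DESeq2, 36 with limma-voom and 334 with a slope on log2 Ttr; leaving out 1 library gave 15 to 258. The 50 genes called for the slope in experiment 2 became 754 at an adjusted p under 0.1, 424 with no filter, 24 with at least 10 counts, 1287 with DESeq2, 210 with tTA genotype in the model and 0 with libraries over 100 CPM against those under 50; leaving out 1 library gave 14 to 3859. The 2 genes called for DN became 127 with no filter and stayed at 2 or 3 under every other alternative run. The 41 genes called for SOR became 239 at an adjusted p under 0.1, 21 with upper quartile scaling, 252 with no filter, 22 with at least 10 counts, 1054 with DESeq2, 17 with limma-voom, 14 with tTA genotype in the model and 20 with no Ttr in the model; leaving out 1 library gave 1 to 3978. The cause was not tested. Among refits of named genes, 783 kept their direction and side of the threshold, 231 lost the call, 53 gained it and 0 reversed. In experiment 1 a split over 100 CPM against all others is the split reported, since no library lies between; in experiment 2 homecage 3, at 50.7 CPM, lies between and is in neither class.

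With a replicate block, 23 genes were called for the slope (10 higher and 13 lower), 35 for SOR and 2 for DN; the choroid genes that rose went from 28 to 9 and the higher genes of experiment 1 that rose from 17 to 8. For the split, no paired analysis was possible because the rich libraries are the numbers 1 and 2 of both groups, so the block contains the split. Same-numbered libraries correlated at -0.05 to 0.38 in experiment 1 and 0.07 to 0.53 in experiment 2, over 0.1 in 3 of 5 and 3 of 4 pairs, and 3 of 10 and 3 of 8 libraries correlated best with their own number, so the numbers were not taken as pairs. Depth limits the genes with few counts in poor libraries, where folds rest on the prior count.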
